A study of Mus musculus with 16 samples.

Results

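Replication histone promoters are the starts of the genes for linker histone H1 and for the core histones H2A, H2B, H3 and H4 that package newly copied DNA. They were studied here as HindIII fragments captured by Promoter Capture Hi-C (P-CHi-C), an assay in which crosslinked chromatin is cut with a restriction enzyme, neighbouring ends are joined, and products that hold a promoter fragment, called a bait, are pulled down with RNA probes and sequenced. The members are all baits on which a protein-coding gene starts whose symbol begins with Hist1h, Hist2h, Hist3h or Hist4h in the mm9 annotation. There are 36 such baits among 18165, with 58 of the 67 annotated histone genes. The 16 samples came from livers of wild type C57BL/6 male mice. The mice, 8 weeks old at first, were kept for 2 weeks under 12 h light and 12 h dark and fed ad libitum. Livers were taken at ZT0 (lights on), ZT6, ZT12 (lights off) and ZT18. The livers were pooled by 2, with pools A, B and C (3 pools) for a timepoint and a second lane for A. No group was treated, and the groups differ in the time of day alone. Calling was done on merged pools, which leaves 1 list of fragment pairs per timepoint, so no value has a replicate error and no difference has a test. Each pair carries a score from CHiCAGO, a caller that weighs its reads against those expected from distance and technical noise, and the lists start at a score of 5. A bait here is a fragment in the bait column of any list, so a captured fragment with no listed pair would count as no bait. A contact below means a pair listed at any of the 4 timepoints unless a timepoint is named. Intervals in brackets are 95% Wilson intervals, which cover counting error only, and contacts of the same bait are not independent. The lists hold no expression values, so the tissue could not be checked against liver markers, and whole liver holds several cell types.

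Replication histone genes are transcribed when a cell copies its DNA, and their messenger RNAs end in a stem-loop instead of a poly(A) tail. In cycling cells the gene clusters gather at the histone locus body, a nuclear body that holds NPAT, the coactivator of these genes, and the machinery that cuts the RNA behind the stem-loop. Most cells of the adult liver are not dividing. Many H2A and H2B genes lie head to head and share a promoter, in which CCAAT boxes, TATA boxes and the octamer ATTTGCAT are well-known elements.

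The stem-loop was searched as a run of 16 bases whose first 6 pair with its last 6, within 100 bases after a stop codon on the coding strand. The forms found most often in histone genes other than H4 and in H4 genes are given from mm9, with every base in capitals as part of the stem-loop.
H1, H2A, H2B and H3 genes: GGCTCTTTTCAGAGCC
H4 genes: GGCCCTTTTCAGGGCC
Both forms were picked in the histone genes themselves, so their counts there describe these genes and test nothing. The first stood in 39 of 67 histone genes, 0 of them H4 genes. Over all 21930 protein-coding genes with an annotated stop codon, the histone genes included, it stood in 40 (0.182%). The second stood in 8 of 13 H4 genes and in 0 other histone genes. With the first 2 bases and the step from stem to loop (bases 6 and 7) kept and the rest free, more genes had a stem-loop. It was found in 63 histone genes (94%) and, with these included, in 70 of the 21930 genes (0.319%). It was not found in this window of Hist1h2an, Hist1h2al, Hist2h2be and Hist2h2bb. In the 250 bases before the start, on both strands, CCAAT was found in 85.1% of the histone genes and 35% of all genes, TATAAA in 49.3% and 12.3%, and ATTTGCAT in 22.4% and 1.62%. Of the H2A and H2B genes, 12 pairs start head to head at most 400 bp apart. The whole interval between both starts is given below for a pair from each of the 3 parts of the chromosome 13 cluster, because their baits carry most of the results that follow. Letters are from mm9, on the plus strand, 5′ to 3′, with CCAAT (or ATTGG, its other strand), TATAAA, ATTTGCAT and the HindIII site AAGCTT in capitals.
Hist1h2bl-Hist1h2ai, the first part, chr13:21808013-21808280: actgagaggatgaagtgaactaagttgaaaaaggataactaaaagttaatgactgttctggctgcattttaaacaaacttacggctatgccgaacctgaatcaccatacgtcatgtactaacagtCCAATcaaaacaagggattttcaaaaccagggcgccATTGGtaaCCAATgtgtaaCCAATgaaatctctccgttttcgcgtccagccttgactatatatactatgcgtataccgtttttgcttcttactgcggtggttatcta
Hist1h2ag-Hist1h2bj, the second part, chr13:22134819-22135082: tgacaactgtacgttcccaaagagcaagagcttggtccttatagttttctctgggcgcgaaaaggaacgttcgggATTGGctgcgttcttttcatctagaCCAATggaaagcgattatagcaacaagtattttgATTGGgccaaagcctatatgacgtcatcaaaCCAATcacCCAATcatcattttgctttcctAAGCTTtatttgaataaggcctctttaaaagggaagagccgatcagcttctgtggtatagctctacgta
Hist1h2ae-Hist1h2bg, the third part, chr13:23663090-23663264: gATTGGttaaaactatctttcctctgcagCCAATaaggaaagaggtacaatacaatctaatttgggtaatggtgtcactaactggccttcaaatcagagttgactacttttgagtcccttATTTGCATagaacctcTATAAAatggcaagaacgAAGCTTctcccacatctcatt
The first promoter has 4 CCAAT boxes and no HindIII site, so both starts lie on the same bait. The other promoters each hold a HindIII site, which puts the H2A start and the H2B start on adjoining fragments. Hist1h2ag thus lies on a bait with 101 contacts, while Hist1h2bj lies on a fragment that is no bait and had 11 contacts. The third promoter holds 2 CCAAT boxes, the octamer and a TATAAA box. Its Hist1h2ae side had 125 contacts and its Hist1h2bg side 41, and 37 other ends were common to both, which is 29.6% of the first set and 90.2% of the second. This promoter is therefore counted on 2 baits.

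The chromosome 13 cluster falls into 3 parts where consecutive histone starts lie more than 200 kb apart. The first part holds 18 genes on 6 baits over 117.6 kb (first start 21808012, last start 21925612, mm9). The second part holds 5 genes on 2 baits over 7.571 kb, 201.9 kb further on. The third part holds 31 genes on 20 baits over 403.4 kb (23622919 to 24026331), beyond a gap of 1488 kb. Hist1h2al lies alone on the same chromosome at 51298434. Chromosome 3 holds 9 Hist2 genes on 5 baits, chromosome 11 holds Hist3h2ba and Hist3h2a on 1 bait, and chromosome 6 holds Hist4h4. Of the 36 baits, 18 hold more than 1 histone start and up to 3, so contacts could not be given to single genes there. Another protein-coding gene starts on 2 of the baits, Trim17 on the Hist3 bait and Gm17658 on the Hist1h4d bait.

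Of the 9 histone genes that start on no bait, 8 are in the first part. Hist1h2bq, Hist1h2ao and Hist1h4m start on a fragment in no list, as do Hist1h4n, Hist1h2ap and Hist1h2br. Of the 50-base windows of these fragments, 44.6% and 40.9% occur again between 20 and 26 Mb of chromosome 13. Over the first part with 20 kb on each side, the median share of repeated windows was 44.6% in 17 fragments in no list and 2.23% in 25 listed fragments. Baits of the 3 parts ranged from 0% (Hist1h1d among them) to 35.7% (Hist1h3b). The share was 28.1% for the bait of Hist1h2bl and Hist1h2ai and 23.7% for that of Hist1h4i and Hist1h2ag. Reads from repeated sequence are difficult to place, and the part of this in the missing or the listed contacts was not tested.

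Histone promoters had many contacts. The median was 39.5 contacts per bait (range 1 to 202), against 9 over all baits of the series (1 to 202), and 53 (21 to 202) for the 28 baits of the 3 parts. The bait of Hist1h2bl and Hist1h2ai, an H2B and an H2A gene at the edge of the first part, had 202 contacts, and 0 of the other baits of the series had more. Its lists held 156, 164, 150 and 164 contacts at ZT0, ZT6, ZT12 and ZT18. At least 80 contacts were found for 11 of 36 histone baits (30.6%), against 1.46% of all baits. In the second part, the bait of Hist1h4i and Hist1h2ag led with 101 contacts (73, 76, 65 and 64 in the order of timepoints). In the third part, the bait of Hist1h4h, Hist1h2af and Hist1h3g led with 136 (105, 108, 94 and 93). The fragments were 528 to 25085 bp long, and longer ones did not have more contacts (Spearman's rho -0.296 across the 36 baits, which share the same lists). The plot of contacts by kind of other end shows that the high counts lie in the 3 parts of chromosome 13.

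**Figure D1:**
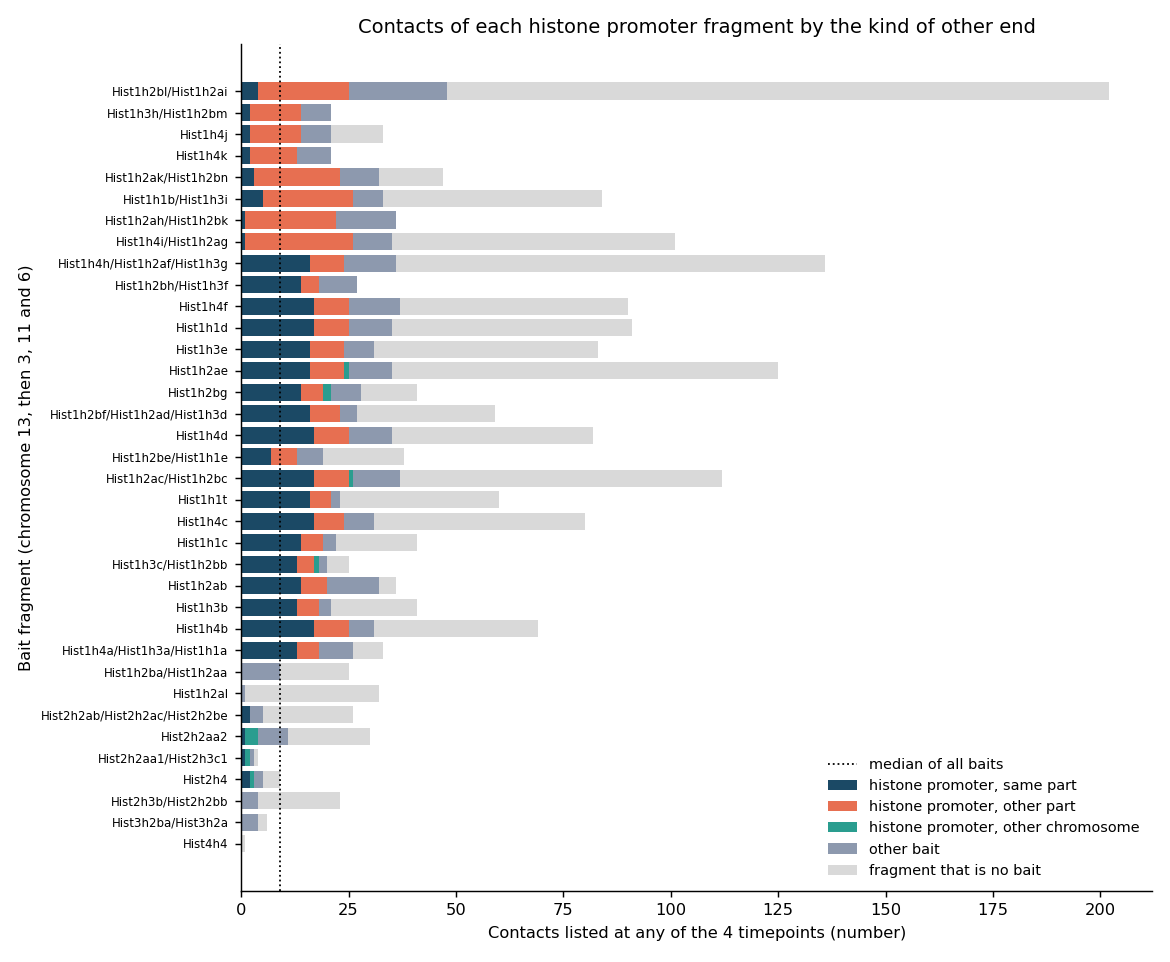
Contacts of each of the 36 histone promoter fragments (rows), listed at any of the 4 timepoints, stacked by what lies at the other end. The x axis is the number of contacts, and the dotted line is the median of all baits, 9. The Hist1h2bl/Hist1h2ai bait stands highest with 202, and orange segments (histone promoters in another part of the cluster) are found in 27 of the 28 baits of the 3 parts.

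All histone types shared in this. Baits with an H1 gene had a median of 50.5 contacts (33 to 91, 6 baits), H2A baits 36 (4 to 202, 15 baits), H2B baits 31.5 (6 to 202, 14 baits), H3 baits 33 (4 to 136, 11 baits) and H4 baits 69 (1 to 136, 11 baits). A bait with several types counts under each, and the ranges overlap between all types. The lowest value of each core histone type came from a bait of Hist2, Hist3 or Hist4.

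Together the 36 baits had 1677 distinct contacts, 0.678% of the 247177 in the series. Of these, 687 were listed at all 4 timepoints (41%, 38.6 to 43.3), against 32.5% of all pairs, while 452 were listed at 1, 292 at 2 and 246 at 3 timepoints. Another bait was at the other end of 549 contacts (32.7%, 30.5 to 35), against 15.4% of all pairs. Another histone promoter was at the other end of 293 contacts (17.5%, 15.7 to 19.4). The remaining other ends were 256 with baits of other genes and 1128 with fragments that are no bait. Other gene families in clusters gave lower values by the same count: 9 of 695 contacts of Hox promoters stayed in the family (1.29%, 0.683 to 2.44), as did 10 of 232 for the Vmn1r pheromone receptors (4.31%, 2.36 to 7.75) and 12 of 114 for the H2- histocompatibility genes (10.5%, 6.12 to 17.5). The intervals of the histone and the H2- share overlap. The families differ in span and number of baits, and no test was made between them.

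Histone promoter contacts also reached far. The median distance between fragment midpoints was 353.2 kb, against 161.7 kb over all pairs, but the distances fell into separate groups. Of 1672 contacts within a chromosome, 635 spanned under 0.2 Mb (38%), 237 between 0.2 and 1 Mb (14.2%), and 800 between 1 and 3 Mb (47.8%), and 0 spanned more. Of all pairs in the series, 1.43% spanned over 1 Mb. Histone promoters, 0.198% of the baits, were at an end of 22.7% of the 3529 pairs over 1 Mb in the series. Both ends lay in a part of the cluster in 594 of the 800 (74.2%).

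The parts of the cluster contacted each other across the gap. Of 172 possible bait pairs from different parts, 133 were listed (77.3%, 70.5 to 82.9). The share of all bait pairs of the genome, taken at the distances of each pair of parts and weighted by its possible histone pairs, was 1.57%, or 6.4% where both baits had at least as many contacts as the least contacted histone bait compared. Between the first and the third part, 1.75 to 2.21 Mb apart, 87 of 120 pairs were listed (72.5%, 63.9 to 79.7), where all bait pairs at these distances gave 0.267% (0.164% without the histone pairs) and baits with at least 21 contacts 2.99%. Between the second and the third part, 1.49 to 1.9 Mb apart, it was 36 of 40 (90%, 76.9 to 96), where these shares were 0.396% (0.284% without the histone pairs) and, for baits with at least 25 contacts, 5.45%. Between the first and the second part, 0.252 to 0.325 Mb apart, it was 10 of 12 (83.3%, 55.2 to 95.3), where they were 18.5% and 43.6%. Genome shares not marked as without the histone pairs include these pairs. They were 87 of the 150 listed pairs behind the 2.99%. Of the 133 pairs, 84 were listed at all 4 timepoints, 18 at 3, 17 at 2 and 14 at 1. The median of their highest scores was 19.7, and 106 reached a score of 10.

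**Figure D2:**
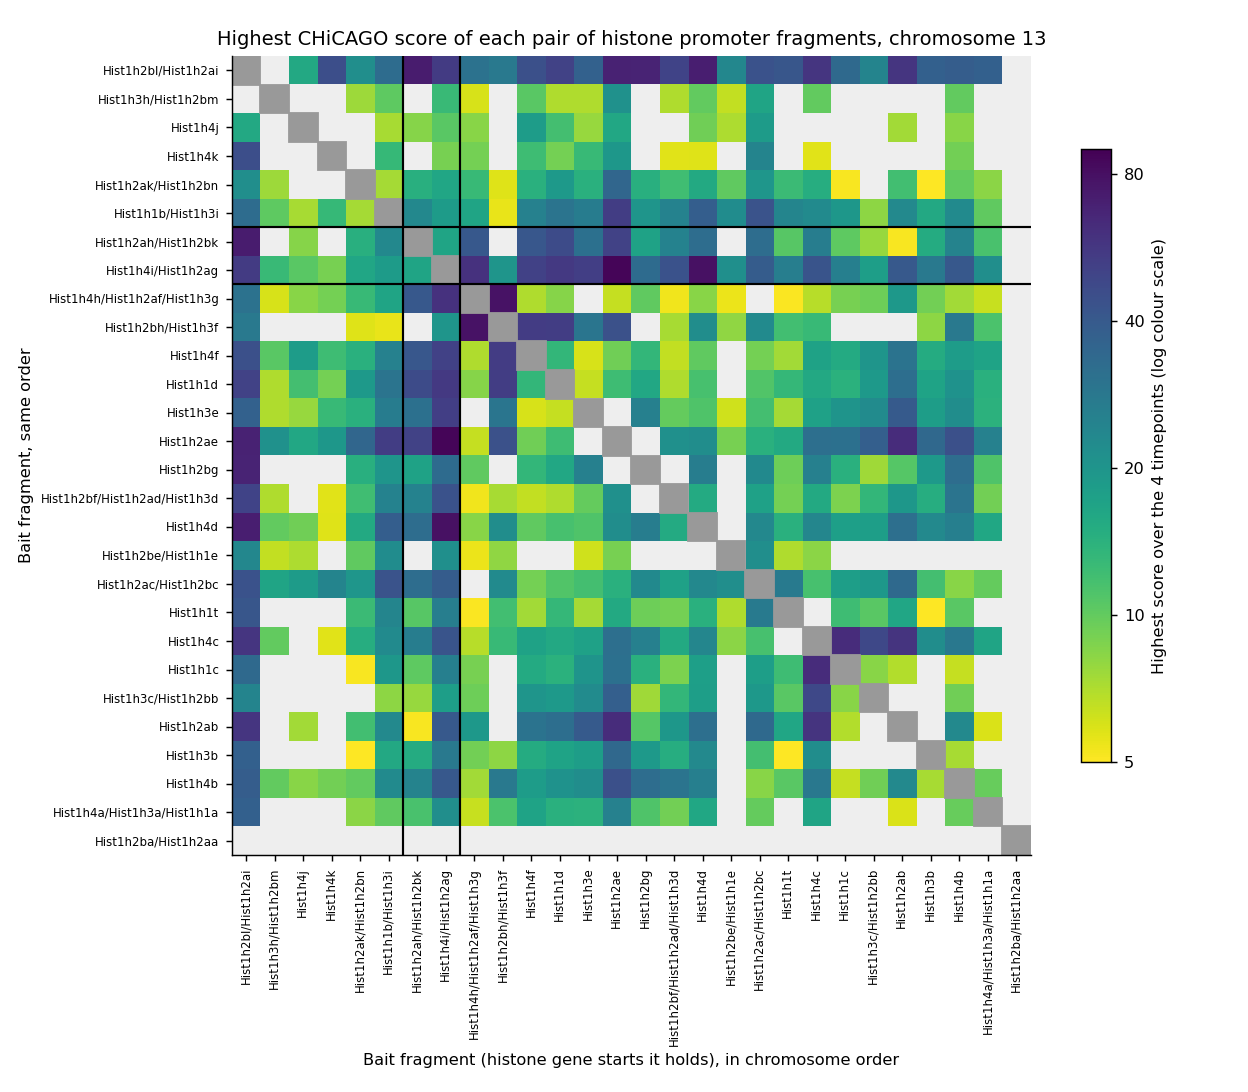
Highest CHiCAGO score over the 4 timepoints for each pair of the 28 baits of the chromosome 13 cluster, in chromosome order on both axes, on a log colour scale from 5. Black lines separate the 3 parts, dark grey is a bait with itself and light grey is a pair in no list. The blocks off the diagonal are mostly filled (133 of 172 pairs), and the Hist1h2ba/Hist1h2aa row is empty.

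The 2 highest of these scores joined the second to the third part. The pair of Hist1h4i/Hist1h2ag and Hist1h2ae, 1.53 Mb apart, scored 64.79, 86.47, 75.92 and 79.09 at ZT0, ZT6, ZT12 and ZT18. The pair of the same bait and Hist1h4d scored 64.17, 79.48, 64.34 and 55.31. The Hist1h2bl/Hist1h2ai bait of the first part made the other 3 of the 5 highest pairs. It scored 59.52, 61.07, 55.65 and 71.98 with Hist1h2ah/Hist1h2bk in the second part, 0.318 Mb away. With Hist1h4d it scored 70.35, 68.82, 63.07 and 66.77, and with Hist1h2ae 68.24, 67.51, 60.85 and 55.79. Every one of these 5 pairs was over 50 in every list. In the whole series there were 1024 promoter-promoter pairs over 1 Mb, of which 123 (12%) joined histone promoters, and these made up 72 of the 100 with the highest scores, including the highest.

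Baits differed in how many of the other parts' baits they were listed with. In the third part, 8 of 20 baits were listed with all 8 baits of the other parts, among them Hist1h1d, Hist1h2ae and Hist1h4b. In the first part the counts were 21 of 22 for Hist1h2bl/Hist1h2ai and Hist1h1b/Hist1h3i, 20 for Hist1h2ak/Hist1h2bn, and 11 or 12 for the remaining 3 baits. Hist1h2ba and Hist1h2aa, which encode testis-specific H2B and H2A, share a bait 170.5 kb beyond the last other histone start of the third part. Their bait was listed with 0 of 27 other baits of the cluster, though it had 25 contacts (15, 15, 13 and 16 by timepoint), the highest with a fragment in Trim38, 147 kb away, at 9.73, 7.41, 11.48 and 8.69. Without this bait, 133 of 164 pairs between parts were listed (81.1%, 74.4 to 86.4). The testis linker histone gene Hist1h1t lies inside the third part, and its bait was listed with 16 histone baits of its part and 5 of the others.

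Histone genes are alike in sequence, so pairs that share a blastn match of at least 100 bases were counted apart. Such a match was present in 78 of the 133 listed pairs between parts (58.6%) and in 20 of the 39 pairs not listed (51.3%). Without the matching pairs, 55 of 74 remained listed (74.3%). This count leaves out a pair only where its own fragments match each other. A read placed on a look-alike of its true fragment could also join fragments that share no match. The part of misplaced reads in the pairs between parts was thus not tested. Of the 5 highest pairs, Hist1h2bl/Hist1h2ai with Hist1h4d had no such match. A further limit is that 4 of the 36 members had contacts with other baits alone, Hist1h3h/Hist1h2bm, Hist1h4k, Hist1h2ah/Hist1h2bk and Hist1h2bh/Hist1h3f (11.1%, against 14.1% of all baits). Whether their own probes captured them was not tested. Without these 4, 85 of 99 pairs between parts were listed (85.9%).

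**Figure D3:**
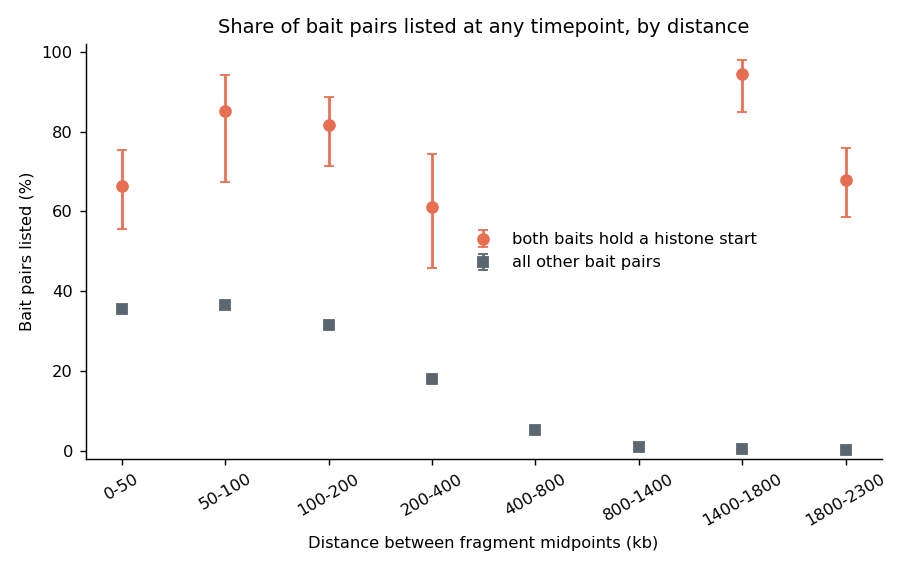
Share of bait pairs listed at any timepoint (y axis, percent, with 95% Wilson intervals) by the distance between fragment midpoints (x axis, kb), for pairs in which both baits hold a histone start and for all other bait pairs within a chromosome. Bins with fewer than 2 histone pairs are not drawn for them. From 1400 to 1800 kb, 94.4% of the histone pairs were listed and 0.309% of the others.

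Contacts within the parts were also frequent. Over all parts, 155 of 216 possible pairs were listed (71.8%, 65.4 to 77.3). In the third part it was 142 of 190 (74.7%, 68.1 to 80.4), against 26.6% of bait pairs of the genome at these distances and 56.6% of those with at least 25 contacts at both baits. In the first part it was 9 of 15 (60%, 35.7 to 80.2), against 36.3% and, for baits with at least 21 contacts, 54.6%, and the lone pair of the second part was listed. The lists hold 0 pairs of adjoining fragments, so 7 of the 216 pairs could not be listed. The share by distance shows that histone pairs were listed in 85.2% (67.5 to 94.1) at 50 to 100 kb and in 67.9% (58.5 to 76) at 1800 to 2300 kb. Other bait pairs went from 36.5% to 0.141% over the same distances.

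The 5 highest scores within a part were all in the third. The bait of Hist1h4h, Hist1h2af and Hist1h3g scored 74.01, 78.46, 32.09 and 37.65 with its near neighbour Hist1h2bh/Hist1h3f, in the order of timepoints. Hist1h4c scored 57.37, 34.66, 62.58 and 59.48 with Hist1h1c, and 52.61, 34.94, 41.39 and 58.4 with Hist1h2ab. Hist1h2ae scored 54.29, 47.16, 59.37 and 62.46 with Hist1h2ab. Hist1h2bh/Hist1h3f scored 53.77, 47.7, 21.03 and 30.09 with Hist1h4f. Among these 5, both pairs of the Hist1h2bh/Hist1h3f bait were higher at ZT0 and ZT6 than at ZT12 and ZT18. Both pairs of Hist1h4c among them were lowest at ZT6. Other pairs of these baits ran otherwise. With Hist1h2bl/Hist1h2ai, Hist1h4c scored 57.51, 47.39, 34.04 and 54.46, and Hist1h2bh/Hist1h3f scored 24.53, 19.88, 8.5 and 27.95. No replicate shows how far such scores vary between pools.

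The contacts across the gap did not stop at promoters. Of the 339 fragments other than histone baits that were contacted, 190 (56%) were contacted by more than 1 histone bait and 45 (13.3%) by at least 10. Of all listed fragments other than histone baits, 2.14% were contacted by at least 10 baits of any kind. The 339 were chosen by a contact with a histone bait and the wider set was not. The number of baits nearby was not matched either. In the first part with 20 kb on each side, 25 of 43 fragments were listed, and all 25 were contacted by baits of the third part. All 13 fragments of the second part were listed and contacted in this way. In the third part, 135 of 148 fragments were listed, and 89 of these were contacted by baits of the first or the second part. These counts include histone baits, and a fragment can be listed through such a contact alone. A fragment of 1098 bp that is no bait (21877518 to 21878615) was contacted by 19 histone baits, of which 16 were in the third part.

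**Figure D4:**
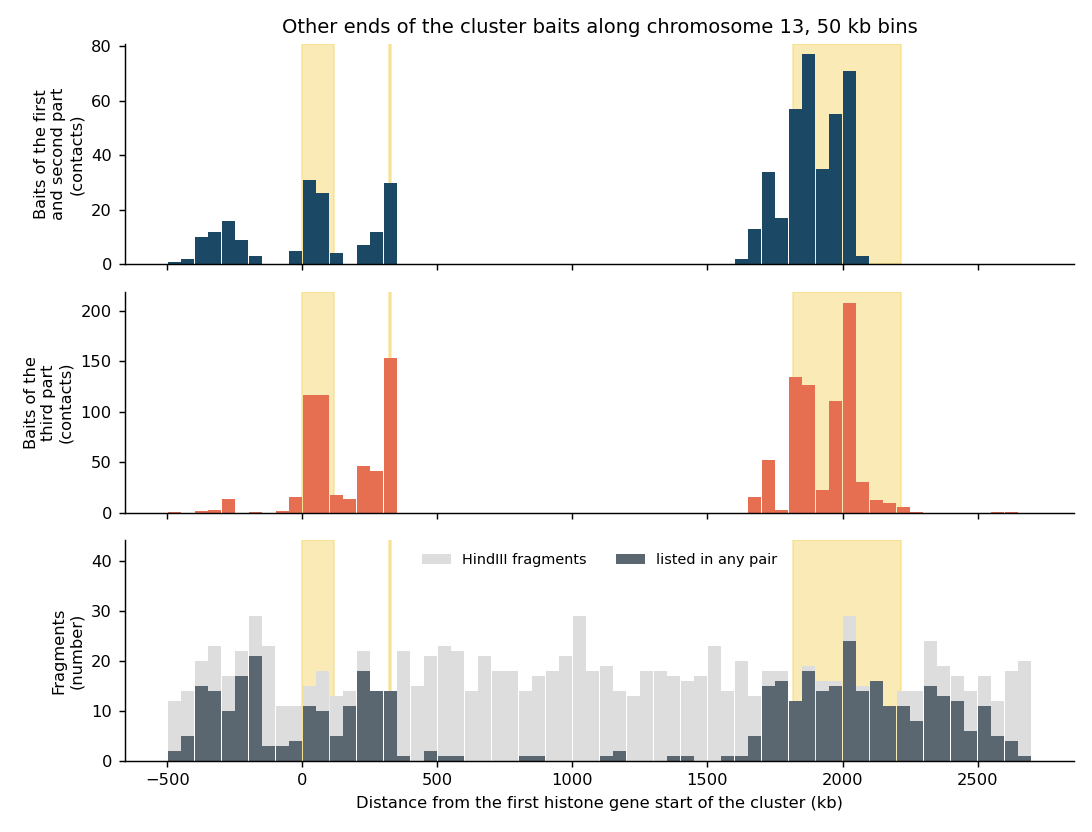
Number of contacts of the baits of the first and the second part (top) and of the third part (middle) that end in each 50 kb bin, and the number of HindIII fragments and of those listed in any pair (bottom). The x axis is the distance in kb from the first histone start, and yellow marks the 3 parts. Most contacts of both sets fall on the parts and their edges, a smaller number before the first part, and 0 in the inner gap.

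Contacts inside the gap lay at its edges. In the 1448 kb between the second and the third part, each taken with 20 kb on each side, 48 of 527 fragments were listed. Baits of the first and the second part had 62 contacts there, and baits of the third part 69. Between 220 kb past the last histone start of the second part and 220 kb before the first of the third (1048 kb), the cluster baits had 0 contacts. Few contacts of any promoter end there, since 9 of its 380 fragments were in any pair, against 135 of 148 in the third part. Of its 28 genes, 26 are Vmn1r vomeronasal receptor genes, which serve pheromone detection in the nose. Repeated 50-base windows made up 21.7% of this stretch, against 27.1% in the first part and 3.88% in the third. By fragment, the median share in this stretch was 6.35% in 368 fragments in no list and 2.29% in 9 listed fragments. The part of repeats in the empty inner stretch was not tested. The 15 baits with no histone start between the first and the third part gave 84 of 420 possible pairs with histone baits (20%, 16.5 to 24.1). These pairs were not matched to the histone pairs in distance or in contacts per bait. Before the third part, Zfp322a, Abt1, Btn1a1 and Btn2a2 were listed with 7, 8, 4 and 5 of the 8 baits of the first and the second part. Contacts across the gap were thus not particular to histone promoters. Of these 15, 7 had 0 contacts with a histone bait, among them Vmn1r191, Vmn1r192, Vmn1r193, Vmn1r211 and Vmn1r218, which had 1 to 4 contacts in all.

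Neighbouring genes also contacted the histone parts. For comparison, the 28 histone baits of the cluster were listed with a median of 22.5 of the 27 others. Zfp322a, a zinc finger gene before the third part, was listed with 20 histone baits, 5 of the first part, 2 of the second and 13 of the third. Olfr1359, an olfactory receptor gene beside the first part, was listed with 20, of which 15 were in the third part. Abt1, which encodes an activator of basal transcription, was listed with 19, and Hfe, the iron-regulating hemochromatosis gene inside the third part, with 18. Zfp184, between the first and the second part, was listed with 12. Their highest scores with a histone bait were 38.28, 14.98, 38.48, 21.68 and 21.09 in this order. A contact of the histone parts was thus not restricted to promoters of histone genes. Btn1a1 and Btn2a2, butyrophilin genes at the edge of the third part, were listed with 4 and 5 baits of the first and the second part and 0 of the third.

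The histone genes outside the cluster had fewer contacts. On chromosome 3, the Hist2h2aa2 bait had 30 (17, 20, 15 and 6 by timepoint), the Hist2h2ab/Hist2h2ac/Hist2h2be bait 26 (9, 9, 14 and 22) and the Hist2h3b/Hist2h2bb bait 23 (17, 16, 17 and 18). Hist2h4 had 9 (6, 4, 4 and 4) and Hist2h2aa1/Hist2h3c1 had 4 (1, 3, 0 and 2). The first and the second of these thus ran in opposite directions over the timepoints, with no replicate to judge it by. The Hist2h2aa2 and Hist2h2aa1/Hist2h3c1 fragments share a match of 2115 bases at 99.527% identity. The part of misplaced reads in their counts was not tested. Among these 5 baits, 3 of 10 pairs were listed (30%, 10.8 to 60.3), against 36.6% of all bait pairs at these distances and 43% of those with at least 4 contacts at both baits. The highest, Hist2h2ab/Hist2h2ac/Hist2h2be with Hist2h2aa2, scored 6.54, 6.69, 5.94 and 8.42. The highest score of a Hist2 bait was that of Hist2h3b/Hist2h2bb with a fragment 161 kb away in the gene BC107364, at 19.15, 19.66, 18.25 and 23.74. The Hist3 bait had 6 contacts (2, 3, 4 and 3), and Hist4h4 had 1, at ZT18 alone with a score of 7.94.

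Hist1h2al, the H2A gene far along chromosome 13, had 32 contacts (23, 26, 19 and 21) and 0 with other histone promoters. Of these, 9 ended on fragments that overlap S1pr3, a sphingosine-1-phosphate receptor gene whose start lies 206 kb away. The highest scored 14.04, 18.6, 12.29 and 14.13. S1pr3, Trim38 and BC107364 were named after their values were seen.

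Contacts between chromosomes were rare and joined the third part to chromosome 3. There were 5, each listed at 1 timepoint, out of 198 in the series. At ZT0, Hist1h2ae with Hist2h2aa2 scored 17.34, Hist1h2bg with Hist2h2aa2 scored 5.47, and Hist1h3c/Hist1h2bb with Hist2h2aa2 scored 5.47. At ZT6, Hist1h2bg with Hist2h4 scored 6.35 and Hist1h2ac/Hist1h2bc with Hist2h2aa1/Hist2h3c1 scored 5.37. At ZT12 and ZT18 there were 0, while the lists held 71 and 85 such pairs in all. At least 1 such pair was found for 7 of 36 histone baits (19.4%), against 0.468% of all baits. The highest pair shares a match of 389 bases at 91.26% identity, and 3 of the 5 pairs share a match of at least 100 bases. The part of misplaced reads in these contacts was not tested.

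From ZT0 to ZT18, the contacts of histone promoters numbered 1165, 1185, 1043 and 1129. As a share of each list this was 0.797% (0.752 to 0.843), 0.766% (0.723 to 0.81), 0.688% (0.648 to 0.731) and 0.746% (0.704 to 0.791). The list of ZT12 was thus lowest, outside the counting interval of ZT0, and no replicate shows how far such shares vary between pools. Of the 36 baits, 3, 4, 15 and 6 had their fewest contacts at ZT0, ZT6, ZT12 and ZT18 without a tie. Of all baits it was 18.4%, 14.5%, 14.3% and 13.6%. Ties were not matched between the sets, whose medians were 39.5 and 9 contacts. Histone baits also share contacts with each other, so they are not separate observations. Contacts between parts numbered 109, 117, 104 and 108, and contacts within parts 146, 140, 130 and 138. The timepoints follow the sample labels. A summary given with the study sets the list totals in another order, in which the list with the fewest histone contacts would be that of ZT6.

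**Figure D5:**
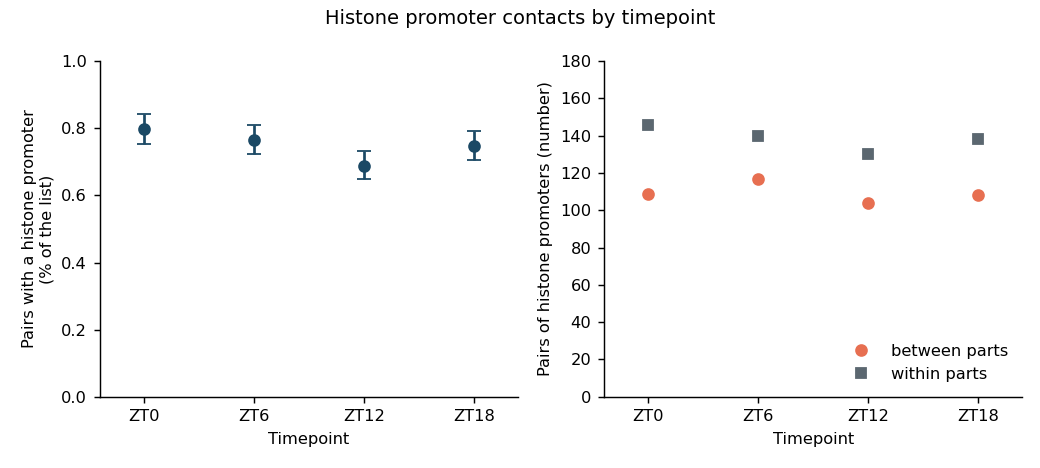
Left, pairs with a histone promoter as a percent of each timepoint's list, with 95% Wilson intervals that cover counting error only. Right, the number of pairs of histone promoters between parts (circles) and within parts (squares) at each timepoint, from 1 merged list each. Between-part pairs number 104 to 117 and within-part pairs 130 to 146.

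Single baits are given for the range of their counts. Hist1h4k had 16, 17, 8 and 3 contacts in the order of timepoints, and Hist1h2bh/Hist1h3f had 26, 22, 12 and 13. Hist1h1d had 60, 64, 48 and 72. Hist1h2ac/Hist1h2bc, with 112 contacts in all, had 83, 89, 85 and 87, and Hist1h3e, with 83 in all, had 70, 67, 50 and 53. No replicate shows how far such counts vary between pools.

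Genes whose products act on the histone genes or their RNA were counted from a fixed list. Of 12 such genes, 11 started on a bait: Npat, Casp8ap2, Lsm10, Lsm11, Hinfp, Zfp473, Cpsf2, Cpsf3, Sympk, Cstf2 and Pou2f1. They had 0 contacts with histone baits, and 0 of them lie on chromosome 13. Pairs between chromosomes are rare in these lists, 198 of 247177 (0.0801%), so the 0 says nothing particular about these genes. Npat, the coactivator, had 22 contacts (15, 12, 15 and 11), and Cpsf3, the nuclease that cuts histone messenger RNA, had 128 (110, 120, 112 and 112). Slbp, which binds the stem-loop, started on no listed bait. Of 10 genes listed here as replication-independent histones, 7 started on a bait, with 3 contacts (H3f3a, Cenpa) to 16 (H2afx) and 0 with histone baits. H1f0 is not annotated under this symbol. Of the others in both lists, H2afy lies on chromosome 13 and starts on no bait, and the rest lie on other chromosomes.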

How the data were processed

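P-CHi-C of mouse liver gave 1 list per timepoint. Per the labels and the methods, the authors filtered reads mapped to mm9 with HiCUP, merged the pools and called interactions with CHiCAGO. The deposited value of a pair is its CHiCAGO score, and tool versions are not given in the sources used here. A pair just under the score minimum of 5 is absent, so absence is no measurement of few reads, and deeper lists hold more pairs. Read depth was not analysed here.

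Lists were read in python 3.11.15 with numpy 2.4.6 and scipy 1.17.1. A bait is a fragment in the first column of any list, pairs were treated as unordered, and gene starts came from GENCODE for mm9. Genome-wide shares count all bait pairs within a chromosome at the distances of the block. Fragments were compared with blastn 2.17.0, and the counting was tested on simulated data. Repeated sequence was counted in 50-base windows. The members, gene lists and alternatives were chosen with earlier results of these data known. Named were the most contacted bait of each part, all Hist2, Hist3 and Hist4 baits, the 5 highest-scoring pairs between and within parts, all pairs between chromosomes, the 5 protein-coding genes listed with most histone baits, and fixed lists of expression factors and replication-independent histones. Other names were chosen after their values were seen. Alternatives are given at the end.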

Additional observations from a re-analysis of the deposited data

How the results depend on the processing

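Of 118 values recomputed under alternatives for 17 results, 89 stayed within the main counting interval or, for counts, within 1.5 times. The 89 include values that could show little. These come from giving gene starts the nearest bait, which added no bait, and from another order of the lists, which only rearranges their counts. At a score of at least 7 or 10, histone promoters had a median of 27 or 17.5 contacts, their contacts a median distance of 1515 or 1533 kb, and 35.3% or 37.2% ended on another bait, 22.9% or 29.2% on another histone promoter. Within parts 64.4% or 48.6% of pairs stayed listed, 11.4% or 5.48% of those with baits between the parts, and 1 pair between chromosomes under both. Between parts 71.5% stayed at 7 and 61.6% at 10. At 10 the lists held 525, 514, 431 and 482 contacts at ZT0, ZT6, ZT12 and ZT18. With an other end within 10 kb accepted, 84.3% of contacts were listed at all timepoints. With parts split at 100 kb, Hist1h2ba/Hist1h2aa became a part, with 69.6% listed between and 78.7% within parts. Without pairs that share a blastn match, the lists held 49, 50, 45 and 43 pairs between parts, and 2 pairs between chromosomes were left. Under alternatives chosen after seeing the data, 13.8% of contacts ended on another histone promoter and 85.9% of pairs between parts were listed without the 4 members that contact baits alone, and 74.7% without the Hist1h2bl/Hist1h2ai bait. Read in the other order, the lists gave 1043 contacts at ZT6, 1129 at ZT12 and 1185 at ZT18. Giving gene starts without a bait the nearest bait within 5 kb, such as Hist1h2bj that of Hist1h4i/Hist1h2ag, added no bait that was not a member already, and no value changed.

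No paired analysis was possible because each timepoint holds 1 list made from merged pools, and leaving out a pool was not possible for the same reason. The lists start at a score of 5, and lower scores were not analysed here.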

Other observations

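Other gene families flank the histone parts. Of the Slc17a genes, which encode organic anion and phosphate transporters and lie between Hist1h1a and Hist1h2ba, Slc17a2 was listed with 9 histone baits, Slc17a3 with 4 and Slc17a1 with 4, all of them in the third part, with highest scores of 10.6, 8.5 and 8.61. On the other side of the first part, Trim27 was listed with 10 histone baits, 4 of the first and 6 of the third part, and the zinc finger gene Zscan12 with 8, 5 of the first, 1 of the second and 2 of the third. A bait that holds no protein-coding start (21536947 to 21540514) was listed with 16, of which 9 were in the third part. These genes were named after their values were seen, and no test was made.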
